A study of Mus musculus with 26 samples.

Results

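Mouse miRNA genes from mir-6896 to mir-7094 lie mostly in introns of protein-coding genes, with an end of the hairpin at a splice site. The small RNA table of the hippocampus listed 181 entries of that number range, and 13 of them are described here: mir-6896, mir-6937, mir-6944, mir-6945, mir-6948, mir-6951, mir-6958, mir-6977, mir-7013, mir-7019, mir-7035, mir-7047 and mir-7066. They were chosen by their counts, 10 or more in at least 6 of 26 libraries, and mir-7080, which also did, was left out by name. Thus 7.18% of the entries of the range were kept, while 475 of all 1054 miRNA entries (45.1%) reached the same number of counts. The members just inside the limit were mir-7066, mir-6977 and mir-6937, each with 10 or more counts in 6 libraries and with 195, 170 and 161 counts in total. Just outside it were mir-6982 with 145 counts (5 libraries) and mir-7073 with 133 counts (4 libraries).

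Libraries were made from the dorsal (dHC) and ventral (vHC) hippocampus, both hemispheres, of male C57BL/6J mice aged 2 to 3 months. Mice of the swim groups had a forced swim of 6 min in water at 18 °C and were sampled 45 mins after its start, and control mice stayed in the home cage. There were 8 control vHC, 6 swim vHC, 6 control dHC and 6 swim dHC libraries. The labels place them in 3 blocks: block 1 held 4 control vHC libraries and 2 of each other group, and blocks 2 and 3 held 2 of each group. The labels do not say whether a dHC and a vHC library came from the same mouse, so p-values measure the spread between these libraries. The hippocampus was measured as whole tissue, and fewer cells of a type cannot be told apart from less RNA per cell.

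Mirtrons are miRNAs made by splicing. In the usual path the nuclear enzyme Drosha cuts a hairpin out of a long transcript, whereas a mirtron is released as a spliced intron, debranched and folded, and then passed to Dicer. In a tailed mirtron only an end of the hairpin is set by a splice site, and the rest of the intron is a tail that has to be trimmed. Such miRNAs are usually of low abundance and are found in many short introns of mammalian genes.

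The hairpins below show the arrangements found among these entries, with the intron's first bases (GU) or last bases (AG) in capitals where the hairpin reaches them. Sequences are those of RefSeq on GRCm38.p6, 5′ to 3′, which held mature arms for 12 and hairpins for 11 of the 13 names. In mir-6944 (chr13:55477681-55477776, minus strand) and mir-6958 (chr15:89185465-89185537, minus strand) the hairpin was the whole intron. In mir-6977 (chr17:56418846-56418909, minus strand) it began at the 5′ splice site, and in mir-7019 (chr4:138316132-138316200, minus strand) it ended at the 3′ splice site.
mir-6944: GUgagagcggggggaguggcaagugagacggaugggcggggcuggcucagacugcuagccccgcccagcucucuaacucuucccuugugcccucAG
mir-6958: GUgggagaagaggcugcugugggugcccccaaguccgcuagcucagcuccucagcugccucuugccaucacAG
mir-6977: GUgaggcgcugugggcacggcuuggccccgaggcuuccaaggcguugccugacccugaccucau
mir-7019: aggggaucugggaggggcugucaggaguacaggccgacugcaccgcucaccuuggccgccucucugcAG

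Mature arms are printed for the miRNAs on which the results turn, with the seed (bases 2 to 8), the part that pairs with a target mRNA, in capitals.
miR-6944-5p: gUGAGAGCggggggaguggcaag
miR-6944-3p: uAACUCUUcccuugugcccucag
miR-7047-5p: uGAGGGAGgagggcugggucuga
miR-7047-3p: uCACCCUCacccuuccuccuucc
miR-7019-5p: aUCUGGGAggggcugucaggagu
miR-7019-3p: uCACCUUGgccgccucucugcag
miR-6937-5p: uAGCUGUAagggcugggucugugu
miR-6937-3p: uCACAGGUucccccuugcacuag
miR-6977-5p: gUGAGGCGcugugggcacggcuugg
miR-6977-3p: aAGGCGUUgccugacccugacc

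The 24 mature arms of these miRNAs had 24 different seeds, so no 2 of them shared one. Their 3′ arms were rich in pyrimidines (C and U), with a median of 72.7% (range 54.5% to 91.3%) over 12 arms, against 54.5% over 559 3′ arms outside the number range. The remaining entries of the range had a median of 71.7% over 160 arms, so this was shared by the whole range. A stretch of pyrimidines before the AG is a usual part of the 3′ splice site. The 3′ arm ended in AG itself in 6 of 12 miRNAs, as in miR-6944-3p, and the 5′ arm started with GU in 3 of 12. Among miRNAs that passed the filter on low counts, the seed of miR-7047-5p was also that of miR-3103-5p, and the seed of miR-6958-5p that of the 3′ arms of miR-30c-1 and miR-30c-2. Other miRNAs shared the seeds of miR-6937-3p, miR-7019-5p, miR-7047-5p and both arms of mir-6945 and mir-6948. The table counts whole precursors, and the 2 arms of a hairpin could not be measured separately.

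All 12 hairpins with a position touched a splice site of a host gene on the same strand, and 11 of them ended exactly at the 3′ splice site. Outside the number range this held for 38 of 703 miRNA entries with a position (5.41%), where an end was allowed to be 5 bases away. Among the other entries of the range it held for 148 of 155 (95.5%), so it is a property of the range and not of the members alone. The 12 hosts were 12 different genes on 11 chromosomes, and their introns were 73 to 5126 bases long (median 812.5), with 3 under 100 bases. The hairpins of mir-6945, mir-6958, mir-7019 and mir-7035 also lie in an exon of another annotated transcript of the same host.

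Several hosts are genes of neurons and their surroundings. The hairpin of mir-6944 is intron 9 of 14 in Dbn1, which encodes drebrin, an actin-binding protein of dendritic spines. Ncan, the host of mir-7066 (chr8:70102524-70102586, minus strand, intron 9 of 14), encodes neurocan, a proteoglycan of the brain's extracellular matrix. Ptprs, the host of mir-6977 (intron 24 of 32), encodes a receptor tyrosine phosphatase of axons, and the hairpin stopped 15 bases before the 3′ splice site. The host of mir-6896 (chr1:34117359-34117431, plus strand, intron 4 of 97) is Dst, which encodes the cytoskeletal linker dystonin.

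Other hosts are widely expressed genes. Pink1, the host of mir-7019 (intron 5 of 7), encodes a kinase of mitochondrial quality control. Pi4kb, the host of mir-7013 (chr3:95004168-95004239, plus strand, intron 8 of 10), encodes a phosphatidylinositol kinase. Adi1, the host of mir-6937 (chr12:28679325-28679389, plus strand, intron 2 of 3), encodes an enzyme of methionine salvage. Acin1, the host of mir-6948 (chr14:54643049-54643110, minus strand, intron 18 of 18, hairpin position of GENCODE), encodes a nuclear protein linked to splicing. Pdlim7, the host of mir-6945 (chr13:55507625-55507692, minus strand, intron 5 of 7), encodes a cytoskeletal adaptor, and its hairpin lay 29848 bases from that of mir-6944. Rasa4, the host of mir-7035 (chr5:136105522-136105603, plus strand, intron 17 of 20), encodes a Ras GTPase-activating protein, and Dennd6b, the host of mir-6958 (intron 17 of 19), a DENN domain protein. The mRNAs of these hosts were not analysed here.

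**Figure D1:**
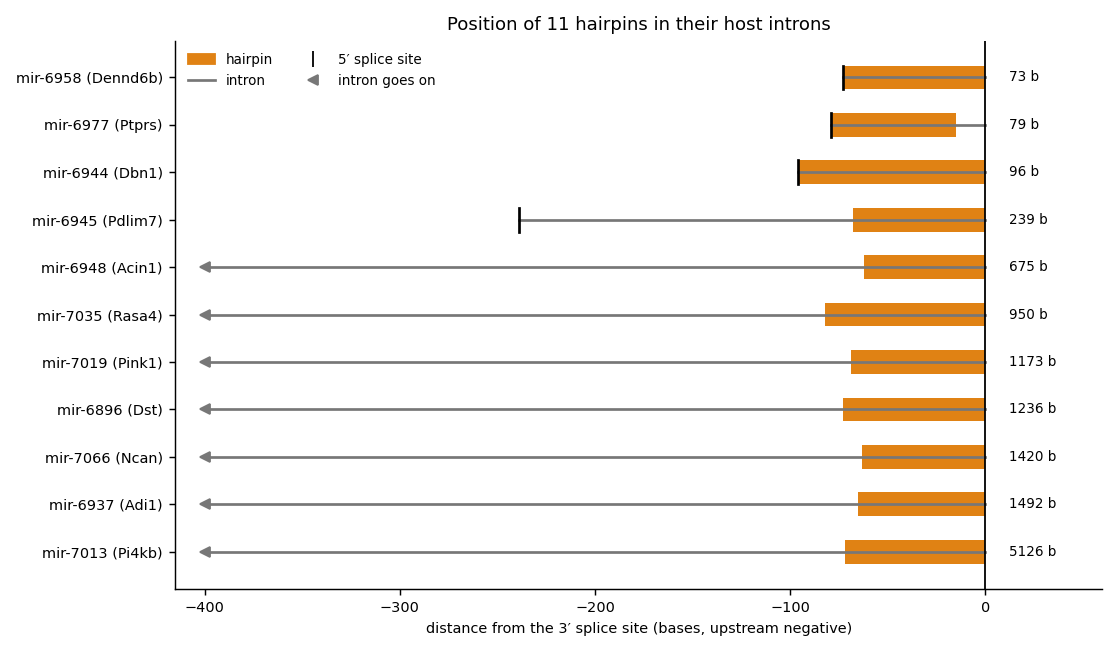
Position of 11 hairpins (orange) in their host introns (grey lines), as the distance in bases from the 3′ splice site, with the intron length on the right and the 5′ splice site as a black tick where the intron is shown whole. The hairpins of mir-6944 and mir-6958 fill introns of 96 and 73 bases, that of mir-6977 stops 15 bases short, and the other 8 lie at the end of longer introns.

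All 13 miRNAs together were a very small part of the small RNA of the hippocampus. They held 4567 counts in 26 libraries, or 0.00696% of all miRNA counts, and 9 of the 13 had a count in every library. A count is a distinct pair of sequence and molecular tag, and miRNA totals ranged from 465387 to 4819724 counts per library. The library of lowest depth, control dHC library 24, had 23 counts for all 13 together, with 4 of them at 0. A count of 10 has an exact Poisson 95% interval of 4.80 to 18.4, which covers counting error only. The lists of cell type marker miRNAs (27 entries, those of neurons among them) had counts in every library.

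Levels are given as CPM, the usual library-scaled unit, here over a library's miRNA counts with TMM normalization. The most abundant was mir-6944, with a mean of 22.1 CPM and rank 316 of 1054 miRNA entries, and it alone held 33.0% of the counts of the 13. Next came mir-7047 with 9.65 CPM, mir-7019 with 5.48 CPM, mir-6948 with 4.89 CPM and mir-6951 with 3.35 CPM. The other 8 ranged down to 2.34 CPM in mir-6937, so the highest and the lowest mean differed 9.46-fold. The median over all entries tested was 130.3 CPM. Relative to counting error alone (a ratio of 1), the variance between libraries of the same group and block was 1.07 for mir-6944, 1.02 for mir-6948 and 0.844 for mir-6951. It was higher for mir-7047 (2.46), mir-6937 (2.62) and mir-6977 (1.98).

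**Figure D2:**
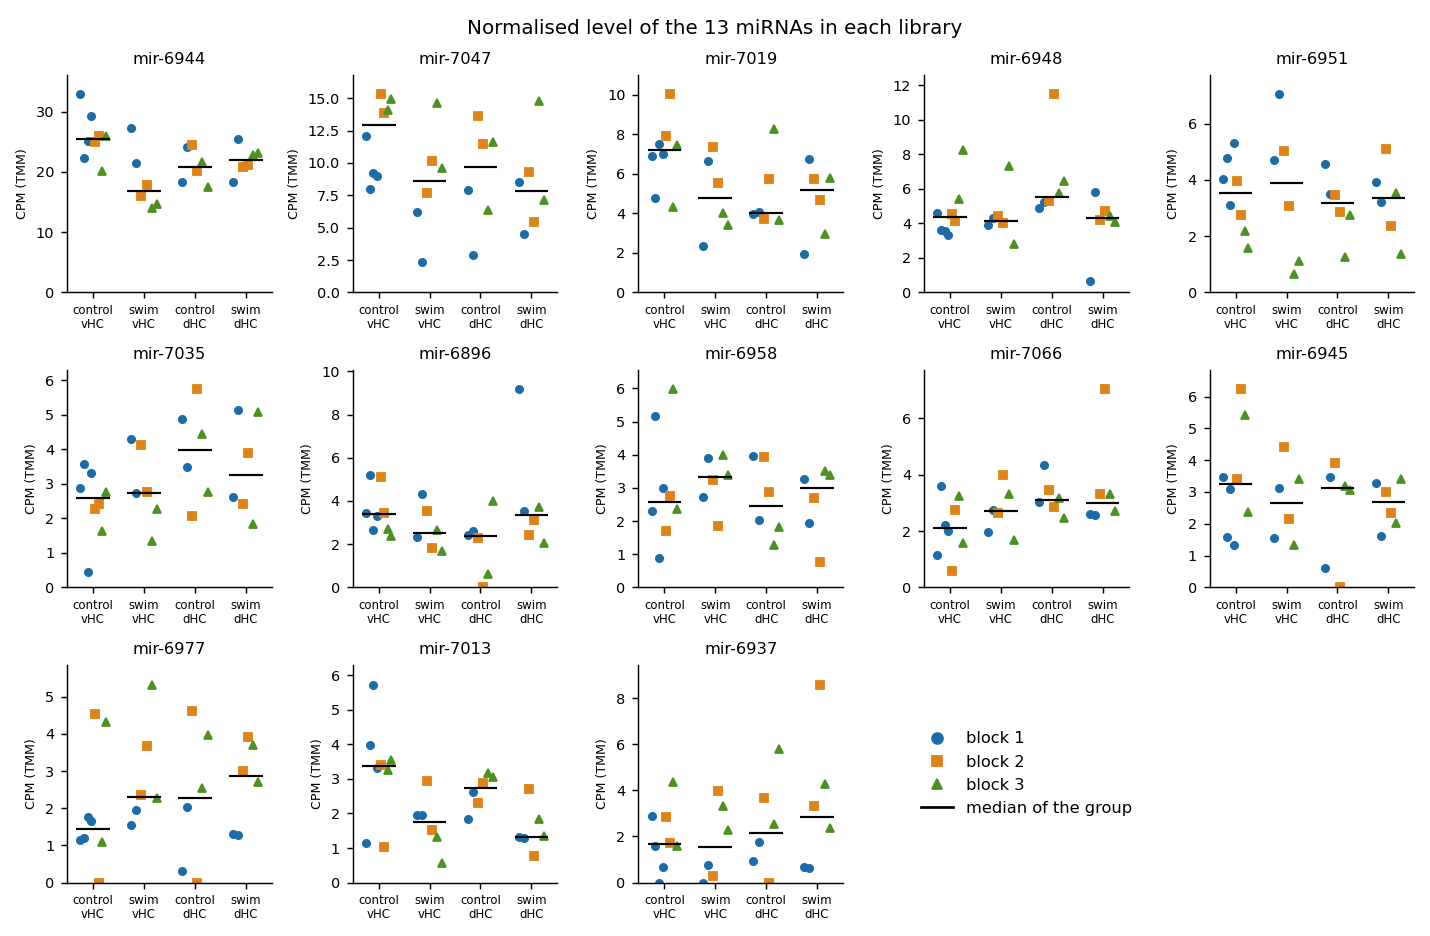
Normalised level (CPM) of each of the 13 miRNAs in every library, by group, with the block as colour and shape and a black line at the group median, in order of mean level. For mir-6944 the medians are 25.5 CPM in control vHC and 16.9 CPM in swim vHC, and the points of all 13 miRNAs overlap between groups.

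To find out whether the swim changed these miRNAs within 45 mins, stress was tested in each region and together with its interaction with region, over all miRNA entries. No member passed in either region. In edgeR, 0 of 9 members with a test had an adjusted p under 0.05 for stress and interaction together (0% of 463 entries), for stress in vHC (0%) or for stress in dHC (0%). At an unadjusted p under 0.05 there were 2, 2 and 0 members, against 3.46%, 7.34% and 3.67% of all entries. DESeq2 gave 0 members in all 3 tests after adjustment and 2, 2 and 0 before it.

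The 2 members with the smallest p-values were the 2 most abundant, and both had lower values after the swim in vHC. In mir-6944, control vHC libraries ranged from 20.1 to 32.9 CPM (median 25.5) and swim vHC libraries from 14 to 27.3 CPM (median 16.9). The groups overlapped, but 4 of 6 swim vHC libraries lay below the lowest control. The log2 difference was -0.47 (SE 0.14, 95% CI -0.75 to -0.19), with an unadjusted p of 0.00203 and an adjusted p of 0.523 in edgeR. Within blocks 1, 2 and 3 the log2 difference of means was -0.17, -0.59 and -0.68. In dHC the same miRNA ranged from 17.5 to 24.4 CPM in control and from 18.3 to 25.4 CPM in swim libraries, with a log2 difference of 0.08 (SE 0.15, 95% CI -0.22 to 0.38).

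The values of mir-7047 were 7.97 to 15.3 CPM (median 13) in control vHC and 2.35 to 14.7 CPM (median 8.65) in swim vHC. Again the groups overlapped, with 3 of 6 swim libraries below the lowest control. The log2 difference was -0.70 (SE 0.21, 95% CI -1.13 to -0.27), with an unadjusted p of 0.00226 and an adjusted p of 0.523 in edgeR. Its size differed between blocks, with -1.16, -0.71 and -0.26 in blocks 1, 2 and 3. In dHC, control libraries ranged from 2.90 to 13.6 CPM and swim libraries from 4.51 to 14.8 CPM, and the log2 difference was -0.11 (SE 0.22, 95% CI -0.57 to 0.34).

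The members with the next smallest p-values differed less clearly. For mir-7019, control vHC ranged from 4.34 to 10.0 CPM (median 7.23) and swim vHC from 2.34 to 7.38 CPM (median 4.76), a log2 difference of -0.40 (SE 0.22, unadjusted p = 0.0804). In dHC its log2 difference was 0.02 (SE 0.25). For mir-6948, control dHC ranged from 4.88 to 11.5 CPM (median 5.52) and swim dHC from 0.654 to 5.79 CPM (median 4.33), with a log2 difference of -0.48 (SE 0.24, unadjusted p = 0.0516). The highest of these values, 11.5 CPM, rested on 4 counts in control dHC library 24, and the lowest on 1 count. The swim values of mir-6896 were lower in vHC (log2 difference -0.35, SE 0.32) and higher in dHC (0.59, SE 0.33), without passing the test. The vHC difference was -0.71 without swim vHC library 15 and -0.23 without swim vHC library 29. The dHC difference was 0.30 without swim dHC library 6, whose 9.16 CPM was the highest value of the group, and 0.91 without control dHC library 32.

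Of the 4 members below the filter on low counts, mir-7013 differed most with stress. Its control vHC libraries ranged from 1.04 to 5.73 CPM (median 3.36) and its swim vHC libraries from 0.566 to 2.95 CPM (median 1.74). In dHC the medians were 2.74 CPM in control and 1.33 CPM in swim libraries. All 6 swim libraries lay below the control median in either region, at 1 to 10 counts per library. The rule touches this difference, as 10 or more counts were reached in 3 control and 1 swim library of vHC and in 2 and 1 of dHC. With no filter on low counts, the log2 difference was -0.74 (SE 0.34) in vHC and -0.54 (SE 0.36) in dHC, with adjusted p-values of 0.733 and 0.871 in edgeR. The values of mir-6945, mir-6958 and mir-7066 differed by -0.15, 0.01 and 0.37 in vHC and by -0.28, 0.01 and -0.04 in dHC on the log2 scale.

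In the test of whether stress acted differently in dHC and vHC, 0 of 9 members passed in edgeR (0% of 463 entries) and 0 in DESeq2. Unadjusted p-values under 0.05 were found for 2 members in edgeR (4.97% of all entries) and 1 in DESeq2. For mir-6944 the stress difference in dHC exceeded that in vHC by 0.55 on the log2 scale (SE 0.20, unadjusted p = 0.0108, adjusted p = 0.954 in edgeR). For mir-6896 it did so by 0.94 (SE 0.46, unadjusted p = 0.0468, adjusted p = 0.954 in edgeR).

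The precision of these differences was lower than for most miRNAs. The median SE of a log2 stress difference in vHC was 0.29 over the 9 members and 0.15 over all 463 entries. The 95% CI stayed within a 2-fold change in either direction for 6 of 9 members in vHC and for 8 of 9 in dHC, against 451 and 449 of all 463 entries. Of the 27 marker entries, 0 passed the stress test in vHC and 2 had an unadjusted p under 0.05 (7.34% of all entries), in the red blood cell and the smooth muscle and pericyte lists. The summed level of the latter (2 entries, 0 of 26 libraries at 0) was 8904 to 16647 CPM in control vHC and 12911 to 20095 CPM in swim vHC. The red blood cell list (2 entries) was 240 to 337 CPM and 246 to 280 CPM, and the part of either list in the differences above was not tested.

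**Figure D3:**
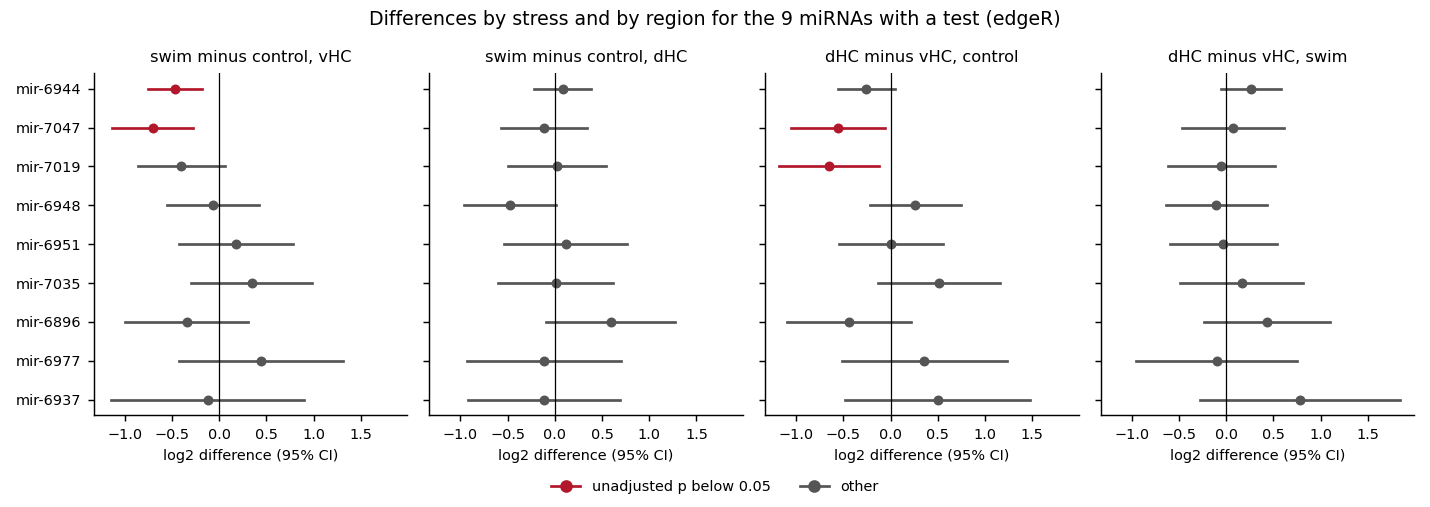
Log2 differences (points) with 95% confidence intervals (lines) for stress in vHC and dHC and for region in control and swim mice, for the 9 miRNAs with a test in edgeR, with an unadjusted p under 0.05 in red. Red points are mir-6944 (-0.47) and mir-7047 (-0.70) for stress in vHC, and mir-7047 (-0.55) and mir-7019 (-0.65) for region in control mice.

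For the comparison of dHC with vHC, block was a term of the fit. In edgeR 0 of 9 members passed in control mice, where 22.5% of all 463 entries did, 0 of 9 after the swim (20.3% of all entries) and 0 of 9 for the average of both (36.1%). Before adjustment 2, 0 and 0 members had a p under 0.05, against 37.6%, 32.4% and 46.7% of all entries. DESeq2 gave 0 members in each comparison after adjustment (31.8%, 22.5% and 40.6% of the entries with an adjusted p) and 1, 0 and 0 before it. In control mice only 418 entries had an adjusted p in DESeq2. Without one were mir-6896, mir-6937, mir-6951, mir-6977 and mir-7035, so these members could not pass there. The members' median log2 difference for the average was 0.00, as was that of all entries. Of the 27 marker entries, 14 passed for the average in edgeR, against 36.1% of all entries. Choroid plexus and ciliated cells gave 6 of 6, oligodendrocytes 3 of 3, neurons 4 of 10 and red blood cells 1 of 2. The part of these cell types in the members' region values was not tested.

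In control mice mir-7019 and mir-7047 had lower values in dHC. For mir-7019 they were 4.34 to 10.0 CPM in control vHC and 3.67 to 8.28 CPM (median 4.01) in control dHC, with 4 of 6 dHC libraries below the lowest vHC library. The log2 difference was -0.65 (SE 0.26, unadjusted p = 0.0173, adjusted p = 0.0646 in edgeR), and it was -0.71, -0.93 and 0.02 within blocks 1, 2 and 3. It passed when control dHC library 26 was left out (-0.81, adjusted p = 0.0204 in edgeR). Over all alternatives the smallest adjusted p of any member in this comparison ranged from 0.00246 to 0.149. The lowest was that of mir-7047 in edgeR with surrogate variables in place of block, a fit that holds a variable following region. For mir-7047 control dHC ranged from 2.90 to 13.6 CPM (median 9.70), a log2 difference from control vHC of -0.55 (SE 0.24, adjusted p = 0.0961 in edgeR), with -0.82, -0.22 and -0.69 within blocks. After the swim the log2 differences between dHC and vHC were -0.05 (SE 0.28) for mir-7019 and 0.07 (SE 0.27) for mir-7047. The stress comparison in vHC and the region comparison in control mice share the 8 control vHC libraries, and in mir-6944, mir-7019 and mir-7047 that group had the highest median of the 4.

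On average over control and swim mice, mir-6937 and mir-7035 had higher values in dHC, with log2 differences of 0.64 (SE 0.35) and 0.34 (SE 0.22), unadjusted p-values of 0.0712 and 0.139 and adjusted p-values of 0.138 and 0.234 in edgeR. The levels of mir-6937 ranged from 0 to 4.34 CPM in control vHC, 0 to 3.99 CPM in swim vHC, 0 to 5.82 CPM in control dHC and 0.644 to 8.59 CPM in swim dHC. With no filter on low counts its log2 difference was 0.65 (SE 0.24), with an adjusted p of 0.0347 in edgeR, where 16.6% of 1034 entries passed. That fit took its spread from all entries and made no allowance for the spread of mir-6937 itself. The variance of this miRNA between libraries of the same group and block was 2.62 relative to counting error. So the pass is not read as a gain over the fit with the filter. It had met the count rule with 2 control and 3 swim libraries of dHC against 0 and 1 of vHC, so this difference is touched by the rule. The rule touches mir-7035 as well. It had 10 or more counts in 2 control and 3 swim libraries of dHC and in 1 and 2 of vHC. Its medians were 2.59 and 2.75 CPM in control and swim vHC and 3.97 and 3.26 CPM in control and swim dHC. The log2 difference was 0.00 (SE 0.11, 95% CI -0.22 to 0.22) for mir-6944, -0.01 (SE 0.19) for mir-6951, 0.08 (SE 0.17) for mir-6948 and 0.13 (SE 0.30) for mir-6977. In control mice the 95% CI stayed within a 2-fold change for 3 of 9 members and for 383 of all 463 entries.

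The entry left out by name differed between the regions. The levels of mir-7080, a hairpin that fills an intron of Cpne7, were 28.3 to 55.5 CPM in control vHC and 5.74 to 14.1 CPM in control dHC, with no overlap. Its log2 difference was -2.27 (SE 0.19) in control and -1.89 (SE 0.19) in swim mice.

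Summed over the 13 miRNAs, the share of miRNA counts had its highest median in control vHC. In CPM without TMM factors (raw CPM) it ranged from 67.2 to 82.2 (median 75.9) in control vHC, from 49.1 to 68.6 (61.1) in swim vHC, from 49.4 to 84.7 (63.9) in control dHC and from 53.4 to 81.5 (67.5) in swim dHC. These sums are a description, as the members were chosen with results known. Most of the difference between the vHC groups lay in mir-6944 and mir-7047, with medians of 39.6 and 25.6 raw CPM in control and swim vHC. The other 11 had 37.0 and 33.9. This split is a description too, as mir-6944 and mir-7047 were singled out by their small stress p-values in the same libraries. The entries of the range with fewer counts (167) had medians of 85.8 and 78.7 raw CPM. Within blocks 1, 2 and 3 the mean over all 13 was 71.6, 78.1 and 74.7 raw CPM in control vHC and 61.1, 67.4 and 53.2 in swim vHC.

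**Figure D4:**
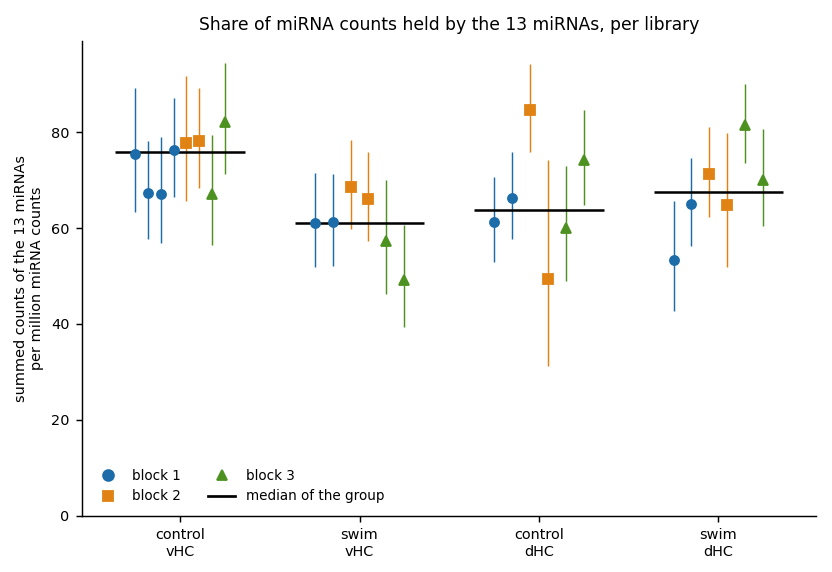
Summed raw CPM of the 13 miRNAs in each library, with exact Poisson 95% intervals (lines), the block as colour and shape and a black line at the group median. Control vHC libraries lie between 67.2 and 82.2 raw CPM and swim vHC libraries between 49.1 and 68.6.

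More members passed for block than for stress or region, but the count rule bears on most of these calls. In edgeR 4 of 9 members passed the test of block at an adjusted p under 0.05 (53.1% of all 463 entries), and DESeq2 also called 4 (56.6% of entries). Between block 3 and block 1, 3 members passed as higher in block 3 (22% of all entries) and 1 as lower (30%). Of the 4, mir-6937, mir-6951 and mir-6977 would not have met the limit of 6 libraries without the block or blocks in which they were high, so nothing is read from the members' count beside the share of all entries, and their block values below are a description. The block test called 3 members when control vHC library 25 was left out or when the library total was taken over the whole table. In those fits mir-6937 was below the filter on low counts and had no test. It passed in all 29 alternatives that held it. The block test called 5 members, with mir-6948, when swim dHC library 16 was left out. It also called 5, with mir-6945, with no filter on low counts.

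The member whose call did not rest on the rule in this way was mir-7047, with 10 or more counts in 9 of 10, 6 of 8 and 8 of 8 libraries of blocks 1, 2 and 3. Its levels were 2.35 to 12.1 CPM (median 7.95), 5.47 to 15.3 CPM (10.8) and 6.37 to 14.9 CPM (12.9), so the blocks overlapped. It rose from block 1 by 0.78 (SE 0.22) in block 2 and by 0.90 (SE 0.22) in block 3 on the log2 scale, with an adjusted p of 0.00173 for block in edgeR.

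The levels of mir-6951 were 3.09 to 7.04 CPM (median 4.31) in block 1, 2.34 to 5.11 CPM (3.26) in block 2 and 0.666 to 3.52 CPM (1.47) in block 3. In block 3, 7 of 8 libraries lay below the lowest library of block 1. The log2 difference from block 1 was -0.27 (SE 0.22) in block 2 and -1.10 (SE 0.26) in block 3. It had 10 or more counts in 7, 4 and 1 libraries of blocks 1, 2 and 3.

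For mir-6937 the block medians were 0.724, 3.07 and 2.94 CPM and the log2 differences of blocks 2 and 3 from block 1 were 1.65 (SE 0.48) and 1.73 (SE 0.47). For mir-6977 the medians were 1.44, 3.35 and 3.21 CPM, with log2 differences of 1.01 (SE 0.39) and 1.16 (SE 0.38). Both had 10 or more counts in 0 of 10 libraries of block 1. With no filter on low counts, the log2 differences of mir-6945 were 0.77 and 0.49, with an adjusted p of 0.0418 for block in edgeR. It had 10 or more counts in 1, 4 and 4 libraries of blocks 1, 2 and 3, so the rule touches this call too.

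The log2 differences of blocks 2 and 3 from block 1 were -0.15 (SE 0.13) and -0.25 (SE 0.13) in mir-6944, and 0.20 (SE 0.22) and 0.43 (SE 0.21) in mir-6948, and neither member passed. Among the markers, 11 of 27 entries passed the block test, against 53.1% of all entries.

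**Figure D5:**
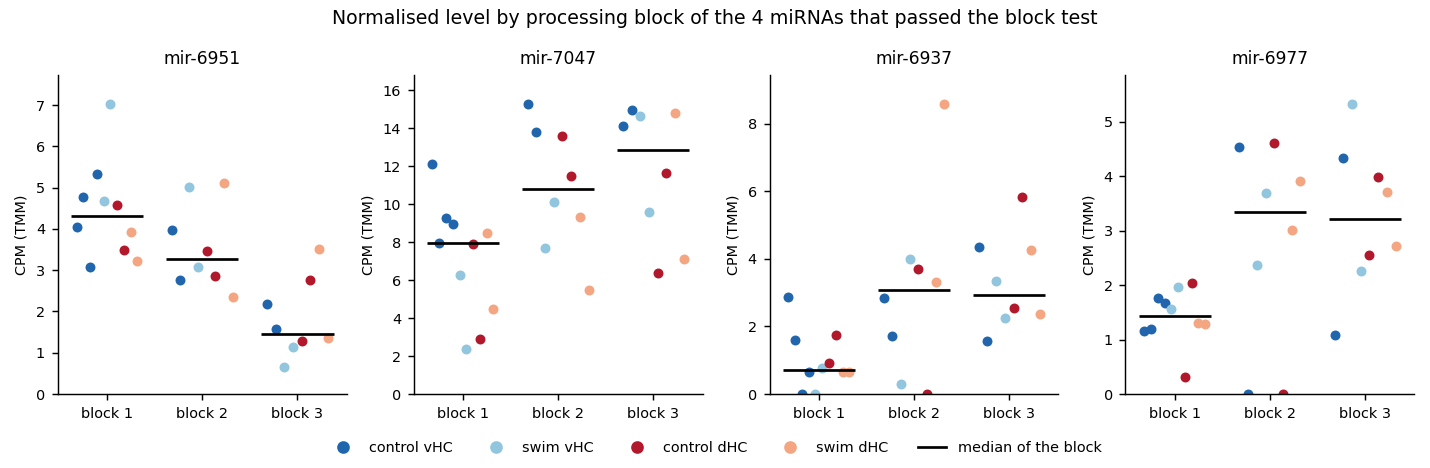
Normalised level (CPM) of the 4 miRNAs that passed the block test, by block, with the group as colour and a black line at the block median. The median of mir-6951 is 4.31 CPM in block 1 and 1.47 CPM in block 3, and that of mir-7047 is 7.95 and 12.9 CPM.

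Known mirtrons outside the number range, a list of 4, gave 0 calls for stress in edgeR in either region (0% of all entries). In vHC the log2 difference was -0.33 (SE 0.14, unadjusted p = 0.0290) for mir-877, a whole intron of Abcf1, and -0.51 (SE 0.25, unadjusted p = 0.0530) for mir-1224, a whole intron of Vwa5b2. It was -0.06 (SE 0.10) for mir-1981 and -0.08 (SE 0.30) for mir-702. In dHC the log2 stress differences were 0.13 (SE 0.15), 0.50 (SE 0.29), 0.01 (SE 0.11) and -0.13 (SE 0.28) in the same order. In the comparison of dHC with vHC, 2 of 4 passed in control mice (22.5% of all entries), 1 after the swim (20.3%) and 1 for the average (36.1%). In control mice mir-1981, a whole intron of Marc2, was lower in dHC (-0.65, SE 0.13, adjusted p = 0.000432 in edgeR) and so was mir-1224 (-1.14, SE 0.35, adjusted p = 0.0171). The log2 region difference of mir-702 in control mice, which lies in an exon of Plod3, was 0.31 (SE 0.29). These values are set side by side without a test between the lists.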

How the data were processed

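The authors deposited expected counts of annotated small RNAs per library, without normalization. Per their methods, adapters were trimmed with cutadapt, reads that shared sequence and molecular tag were collapsed, and annotated RNAs were quantified with Sports 1.0. GRCm38 is the build in the processing notes. Values were rounded to whole numbers before the tests, which changed no member, since 100% of the members' values were whole.

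Members, lists and tests were chosen with earlier results of these data known. Groups and blocks came from the labels. Tests used edgeR 4.0.16 in R 4.3.3 (quasi-likelihood, filterByExpr with minimum count 10, TMM, Benjamini-Hochberg over all 463 entries passing the filter, threshold 0.05). For stress, the model had terms for region, swim and the product of both, with 2 surrogate variables from sva 3.50.0 as covariates. For region and block it had block in their place, because a surrogate variable followed region (91.1% of its variance). The SE is the larger of the quasi-likelihood and Poisson ones. The scripts were tested on simulated data. Members below the filter (4) were tested only with no filter.

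Named members were those with the smallest p (5 for stress, 8 for region, 6 for block), the 5 most abundant, those next to the count limit, and, chosen after their values were seen, mir-6945, mir-6958, mir-7013 and mir-7066 in the fit with no filter. Positions and sequences came from RefSeq and GENCODE vM21. The host of mir-7047 is not reported here. Alternatives were DESeq2 1.42.0, other size factors, no filter, other covariates, another threshold, another library total and leaving out each library.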

Additional observations from a re-analysis of the deposited data

Results flagged for a closer look

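By Dixon's criterion at 95%, chance alone gives about 1 in 20 for normal values of equal spread. The values here rest on low counts in libraries of unequal depth, so that rate need not hold. Over 52 sets of values (13 miRNAs in 4 groups), 6 had a library set apart from the others of its group by this criterion. Of these, 4 were the highest or lowest value of mir-6948, in every group: control vHC library 31 at 8.26 CPM (21 counts, others 3.33 to 5.43 CPM), swim vHC library 27 at 7.33 CPM (11 counts, others 2.83 to 4.43 CPM), control dHC library 24 at 11.5 CPM (4 counts, others 4.88 to 6.43 CPM) and swim dHC library 6 at 0.654 CPM (1 count, others 4.07 to 5.79 CPM). The same swim dHC library 6 held the highest value of mir-6896, at 9.16 CPM (14 counts, others 2.04 to 3.70 CPM). In mir-7066, swim dHC library 22 stood at 7.03 CPM (9 counts, others 2.58 to 3.33 CPM).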

How the results depend on the processing

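No paired analysis was run, because the groups share no library number and the labels tie no dHC library to a vHC library. Each dHC number does follow a vHC number of the same stress group and block. Consecutive numbers were not used as pairs, since the labels do not say what they mark. If they mark the same mouse, the region tests leave that pairing out. Members called for stress, alone or with the interaction, stayed at 0 under every alternative run. Members called by block ranged from 3 to 5, both over all alternatives and with each library left out in turn. For region the count of 0 became 2 in control mice at a threshold of 0.1 (mir-7019 and mir-7047), 1 (mir-7047) in all 3 comparisons with surrogate variables in place of block, and 1 for the average with no filter on low counts (mir-6937). Leaving out a library gave 0 to 1 in control mice, with 1 (mir-7019) without control dHC library 26. With the total over miRNA, tRNA and rRNA entries, the share of the members in control vHC was 67.1 and not 74.0 raw CPM.

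With surrogate variables in place of block, the log2 region difference averaged over control and swim was -1.52 for mir-6937, 1.30 for mir-7019, -1.91 for mir-6977 and 1.04 for mir-6951, all of opposite sign to the values reported, and -2.93 for mir-7047. That fit holds a variable that follows region. Near-zero region differences also changed sign: mir-6951 with DESeq2 size factors (0.011) and DESeq2 (0.020), and mir-6944 with no filter (-0.012) and with no block (-0.027). With each library left out in turn, the region difference ranged from -0.11 to 0.079 for mir-6951, -0.032 to 0.061 for mir-6944, -0.039 to 0.26 for mir-6977 and -0.032 to 0.17 for mir-6948. The stress difference in vHC ranged from -0.11 to 0.15 for mir-6948, -0.57 to -0.35 for mir-6944 and -0.83 to -0.56 for mir-7047. The adjusted p of the latter 2 ranged from 0.101 to 0.960 and from 0.197 to 0.960 over the alternatives. In control dHC library 24, with 23 counts over all members, the 4 members at 0 were not detectable at this depth.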
